A study of Mus musculus with 14 samples.

Results

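The subunit genes of the interleukin-12 family are described here in sorted colonic macrophages of mice that lack *Il10ra*, or *Il10ra* and *Ccr2*. The members were chosen by name from the table of gene counts. They are IL12A, IL12B, IL23A, IL27 and EBI3, written in capitals as the table lists them, and they make up 5 of its 24982 genes. The macrophages were live CD45+ CD64+ CD11b+ MHCII+ Ly6C- cells, negative for CD103 and Ly6G, taken from the lamina propria of the colon and cecum of C57BL/6 mice aged 5 weeks, and each library came from 1 mouse. All mice carried *Cdcs1*, a colitis susceptibility locus. WT mice are labelled with *Cdcs1* alone, IL10RAKO mice with *Cdcs1* and Il10ra -/-, DKO mice with *Cdcs1*, Il10ra -/- and Ccr2 -/-, and the CCR2KO mouse with *Cdcs1* and Ccr2 -/-. The deletions are labelled without a Cre driver or cell type. The comparisons used 4 WT, 4 IL10RAKO and 4 DKO mice. WT mouse 11 and CCR2KO mouse 6, which the deposited table of normalized values does not hold, entered no main test, and their values are given separately.

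Cytokines of the IL-12 family are secreted as pairs of an alpha subunit and a beta subunit. The beta subunit p40, from IL12B, pairs with p35, from IL12A, to form IL-12, and with p19, from IL23A, to form IL-23. The beta subunit EBI3 pairs with p28, from IL27, to form IL-27, and with p35 to form IL-35. IL-12 drives T helper 1 responses and interferon gamma, IL-23 sustains T helper 17 cells and innate lymphoid cells that make IL-17 and IL-22, and IL-27 and IL-35 are known chiefly for restraining T cell responses. IL-10 acts on macrophages through its receptor and STAT3 to lower their output of these and other inflammatory cytokines. The comparisons addressed which subunits differ in macrophages of mice that lack the IL-10 receptor. They also addressed whether loss of CCR2, the chemokine receptor that brings monocytes to tissue, changes that difference. The paper reports spontaneous colitis in mice lacking *Il10ra*, of lesser severity when *Ccr2* was missing too, and none by histology in wild-type mice. Receptor loss and colitis therefore go together in the comparisons with WT, and their separate parts in the subunit levels were not tested.

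Between 13085287 and 21216468 reads were counted per library in the 12 libraries compared, on 13485 to 15450 genes. WT mouse 11 stood apart, with 12153000 reads on 11670 genes and a summed level of 6 epithelial markers of 2924 CPM, against 49.5 to 1174 in the other WT mice. CPM, counts relative to library size, divides a gene's reads by its library's total times the TMM factor, which corrects for differences in library composition. The smallest level that 3 reads could show was 0.124 to 0.211 CPM in these 12 libraries, a limit that covers counting error only. IL10RA was at 217.0 to 379.6 CPM in WT mice and at 3.41 to 11.2 CPM in IL10RAKO and DKO mice. CCR2 was at 361.0 to 702.1 CPM in WT and IL10RAKO mice and at 3.92 to 6.68 CPM in DKO mice, so the targeted genes followed the labels. All 12 macrophage markers had reads in each genotype, with a summed level of 35641 to 53678 CPM, most of it from CD74 and H2-AA. Single macrophage markers passed the edgeR test against WT (adjusted p under 0.05), with FCGR1 higher in IL10RAKO mice (log2 fold change 0.83, adjusted p = 0.0304). In DKO mice MERTK was higher (0.98, adjusted p = 0.0386), and ADGRE1 (-1.05, adjusted p = 0.0238) and CX3CR1 (-1.21, adjusted p = 0.0162) were lower.

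The genes lie on 5 chromosomes of mm10 (GRCm38). IL12A is on chromosome 3 from 68690644 to 68698547 on the forward strand, and IL12B is on chromosome 11 from 44400063 to 44414033 on the forward strand. IL23A is on chromosome 10 from 128296139 to 128298752 on the reverse strand, between STAT2 and PAN2, which do not overlap it. IL27 is on chromosome 7 from 126589010 to 126594941 on the reverse strand and shares 103 exonic bases with APOBR on the opposite strand. EBI3 is on chromosome 17 from 55952640 to 55957022 on the forward strand and shares 270 exonic bases with the antisense gene GM16712. The strand setting of the counting is not given in the sources used here, so that reads on the shared bases cannot be assigned with certainty to either gene of a pair.

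Promoter windows from RefSeq (GRCm38.p6), 250 bases before to 50 bases after an annotated start, were found for 3 of the 5 members. They are shown so that the letters before the starts of IL12A and IL12B, which passed the test against WT, can be read beside those of EBI3, which did not. IL23A and IL27 had no window. Capitals mark matches, on either strand, to the NF-kB consensus, an interferon-stimulated response element (GAAA, any pair of bases, GAAA), AP-1 (TGANTCA), C/EBP (TGNNGNAA or TTNNGNAA), PU.1 (GAGGAAG) or a TATA box (TATAAA or TATATA). All windows are on the forward strand, and IL12A has 2 annotated starts, at chr3:68690394-68690693 and chr3:68691174-68691473. The IL12B window is chr11:44399813-44400112 and the EBI3 window is chr17:55952373-55952672.
IL12A first start: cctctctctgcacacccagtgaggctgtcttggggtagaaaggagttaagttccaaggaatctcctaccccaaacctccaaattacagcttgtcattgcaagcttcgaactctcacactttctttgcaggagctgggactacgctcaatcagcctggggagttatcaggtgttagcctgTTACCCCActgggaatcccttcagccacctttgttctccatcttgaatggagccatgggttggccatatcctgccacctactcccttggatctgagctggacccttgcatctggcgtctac
IL12A second start: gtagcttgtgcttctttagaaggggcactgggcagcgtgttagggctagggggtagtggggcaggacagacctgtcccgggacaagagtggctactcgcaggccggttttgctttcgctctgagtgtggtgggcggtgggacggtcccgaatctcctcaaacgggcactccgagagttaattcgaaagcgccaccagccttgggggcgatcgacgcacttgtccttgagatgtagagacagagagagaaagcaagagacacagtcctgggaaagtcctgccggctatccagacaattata
IL12B: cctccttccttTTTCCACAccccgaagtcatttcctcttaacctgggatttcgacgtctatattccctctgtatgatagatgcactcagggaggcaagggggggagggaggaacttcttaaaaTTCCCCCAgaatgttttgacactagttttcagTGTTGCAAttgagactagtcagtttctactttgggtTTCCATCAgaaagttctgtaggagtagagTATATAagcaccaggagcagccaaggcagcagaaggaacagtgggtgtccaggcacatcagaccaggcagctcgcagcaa
EBI3: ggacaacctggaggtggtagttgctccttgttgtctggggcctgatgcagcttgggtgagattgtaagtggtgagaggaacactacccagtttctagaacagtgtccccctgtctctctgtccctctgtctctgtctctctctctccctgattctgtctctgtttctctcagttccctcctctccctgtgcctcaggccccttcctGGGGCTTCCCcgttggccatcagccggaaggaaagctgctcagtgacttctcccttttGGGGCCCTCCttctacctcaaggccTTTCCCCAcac
The IL12B window held TATATA beginning 30 bases before the start, and TATA letters were found in 17.1% of all 32851 windows of 300 bases. It also held 4 C/EBP matches, a motif found in 66.3% of windows, with 1 match in the first IL12A window and 1 in the EBI3 window. The EBI3 window held 2 matches to the NF-kB consensus, GGGGCTTCCC and GGGGCCCTCC, the first beginning 44 bases before the start and the second 14 bases after it. That consensus was searched for in full only, as GGGRNNYYCC with R for A or G and Y for C or T, and partial sites were not marked. The full letters were found in 8.46% of windows and in no window of IL12A or IL12B. The second IL12A window held no match to any of the 6 motifs. No window of a member held the interferon-stimulated element, AP-1 or PU.1 letters, which were in 3.44%, 7.81% and 13.6% of windows. The matches describe the letters only and show no binding.

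The transcripts of 4 of the 5 subunits were higher in macrophages lacking *Il10ra*, whether or not the mice also lacked *Ccr2*, while EBI3 did not pass the test. IL12A, IL12B, IL23A and IL27 passed at an adjusted p under 0.05 against WT in IL10RAKO mice, where 15.8% of the 13136 genes tested passed in either direction and 8.7% were higher. The same 4 members passed against WT in DKO mice, where 18.5% of genes passed and 9.23% were higher. Both comparisons share the 4 WT mice. Over the 5 members the median log2 fold change was 3.45 against WT for IL10RAKO mice and 3.38 for DKO mice, and over all genes tested it was -0.07 and -0.06. Each of the 4 members that passed was higher in every knockout mouse than in every WT mouse of the comparison (16 of 16 pairs), a separation shown by 9.45% of genes in IL10RAKO and 11.2% in DKO mice. All 5 members had passed the filter on low counts. In bulk samples such as these, fewer cells of a type and less RNA per cell cannot be told apart.

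**Figure D1:**
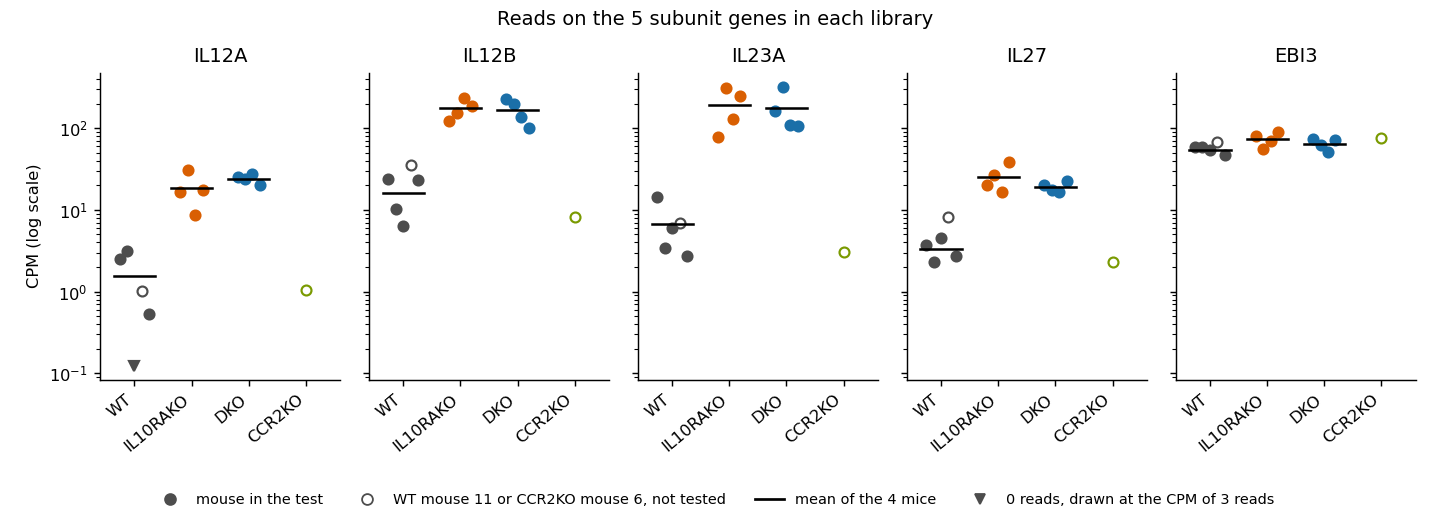
Level of each subunit gene in every library, in CPM on a log scale, with 1 point per mouse and a bar at the mean of the 4 mice tested. For IL12A, IL12B, IL23A and IL27 the IL10RAKO and DKO points lie above all WT points, and for EBI3 the 3 genotypes overlap between 47.3 and 90.9 CPM.

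Among the beta subunits, IL12B, the p40 chain shared by IL-12 and IL-23, was at 23.9, 10.3, 6.34 and 23.4 CPM in WT mice 4, 5, 10 and 13. It was at 123.5, 153.0, 231.1 and 188.6 CPM in IL10RAKO mice 1, 2, 7 and 8, and at 225.5, 199.3, 138.3 and 99.8 CPM in DKO mice 3, 9, 12 and 14. The lowest IL10RAKO mouse was 5.17-fold above the highest WT mouse, and the lowest DKO mouse 4.18-fold above it. IL12B was thus higher by 3.45 ± 0.41 on the log2 scale (fitted log2 fold change ± SE) in IL10RAKO mice (adjusted p = 6.46e-05, edgeR quasi-likelihood test) and by 3.38 ± 0.41 in DKO mice (adjusted p = 5.76e-05).

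EBI3, the beta subunit of IL-27 and IL-35, was the most even member. Its levels in the same order of mice were 58.2, 58.4, 54.1 and 47.3 CPM in WT, 80.2, 55.6, 70.2 and 90.9 CPM in IL10RAKO, and 73.0, 62.6, 50.7 and 71.9 CPM in DKO mice. The genotypes overlapped, with the IL10RAKO mouse higher in 14 of 16 pairs and the DKO mouse higher in 13 of 16. The log2 fold change was 0.45 ± 0.18 in IL10RAKO (95% confidence interval 0.06 to 0.83, which excludes 0 before adjustment, adjusted p = 0.111) and 0.24 ± 0.18 in DKO mice (-0.14 to 0.63, adjusted p = 0.378). With library totals in place of TMM factors these values were 0.12 and -0.01, so the direction in DKO mice turned. GM16712, the antisense gene that shares exonic bases with EBI3, had 36.7 ± 4.74 CPM in the WT mice, 49.8 ± 6.07 in the IL10RAKO mice and 41.0 ± 5.85 in the DKO mice (SD, n = 4 each), and its part in the EBI3 counts was not tested.

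Among the alpha subunits, IL23A, the p19 chain specific to IL-23, had the largest log2 fold change of the 5 members. It was at 14.5, 3.46, 5.92 and 2.73 CPM in WT mice 4, 5, 10 and 13, and at 78.2, 311.4, 127.5 and 245.9 CPM in IL10RAKO mice 1, 2, 7 and 8. DKO mice 3, 9, 12 and 14 had 161.3, 320.7, 109.8 and 105.6 CPM. The spread within each knockout was wide, yet all knockout mice were above the highest WT mouse, by 5.41-fold or more in IL10RAKO and 7.30-fold or more in DKO mice. The log2 fold change was 4.83 ± 0.61 in IL10RAKO (adjusted p = 0.000103) and 4.70 ± 0.61 in DKO mice (adjusted p = 0.000102).

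IL12A, the p35 chain of IL-12 and IL-35, had few reads in WT mice. WT mice 4, 5, 10 and 13 had 53, 53, 0 and 8 reads, or 2.53, 3.11, 0 and 0.533 CPM. The IL10RAKO mice had 16.7, 31.1, 8.70 and 17.7 CPM and the DKO mice 24.9, 23.7, 27.4 and 20.3 CPM. The DKO mice lay close together, while IL10RAKO mouse 2 was well above IL10RAKO mouse 7. The log2 fold change was 3.59 ± 0.73 in IL10RAKO (adjusted p = 0.00384) and 3.97 ± 0.74 in DKO mice (adjusted p = 0.0018). Without WT mouse 10, the library with no IL12A read, the values were 3.15 and 3.53 and the call held in both comparisons.

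IL27, the p28 chain of IL-27, was at 3.68, 2.29, 4.51 and 2.73 CPM in WT mice. It was at 19.9, 26.9, 16.5 and 38.2 CPM in IL10RAKO mice and at 20.3, 17.7, 16.5 and 22.7 CPM in DKO mice. The lowest knockout mouse was 3.66-fold above the highest WT mouse in both comparisons. The log2 fold change was 2.93 ± 0.30 in IL10RAKO (adjusted p = 1.4e-05) and 2.54 ± 0.29 in DKO mice (adjusted p = 3.98e-05). APOBR, which overlaps IL27 on the opposite strand, ranged from 28.4 to 45.7 CPM in the WT mice, from 63.0 to 71.3 in the IL10RAKO mice and from 51.2 to 96.4 in the DKO mice, and its part in the IL27 counts was not tested.

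**Figure D2:**
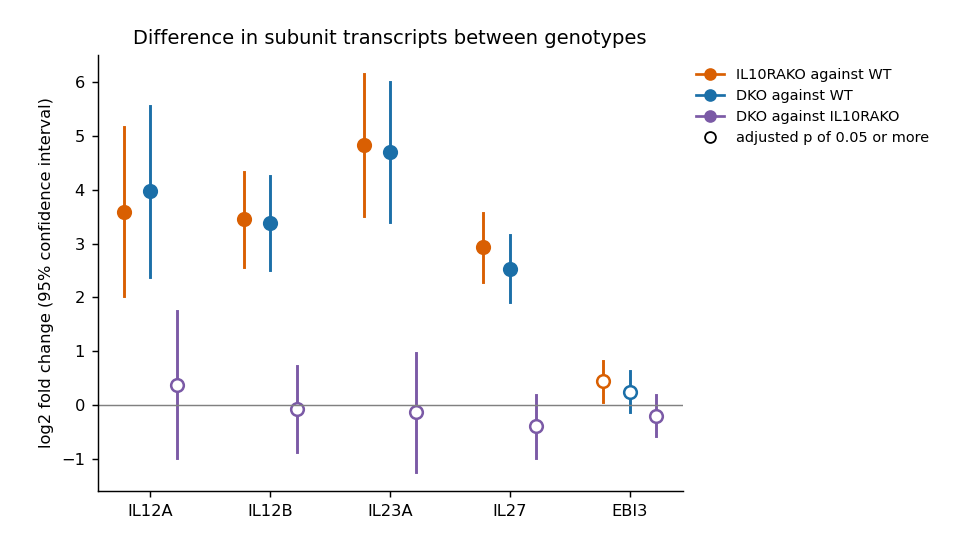
Log2 fold change of each subunit gene (points) with its 95% confidence interval (lines) in the 3 comparisons, where filled points passed at an adjusted p under 0.05. IL12A, IL12B, IL23A and IL27 lie between 2.54 and 4.83 against WT, and no member passed between DKO and IL10RAKO mice.

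Loss of *Ccr2* in mice that already lacked *Il10ra* gave no subunit difference that passed the test. None of the 5 members passed between DKO and IL10RAKO mice with edgeR or with DESeq2, and 0 of 5 were at an unadjusted p under 0.05. Over all 13136 genes, 6 (0.0457%) passed with edgeR, 24 with DESeq2, and 388 were at an unadjusted p under 0.05. The log2 fold changes were 0.38 for IL12A (95% confidence interval -0.99 to 1.74), -0.07 for IL12B (-0.86 to 0.72), -0.13 for IL23A (-1.23 to 0.97), -0.39 for IL27 (-0.98 to 0.19) and -0.20 for EBI3 (-0.58 to 0.18). The intervals of IL12A and IL23A include a 2-fold difference, so a difference of that size is not excluded for them. The interval of EBI3 was the narrowest of the 5.

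Levels of different genes were compared as CPM per kb, that is CPM divided by the length of the union of the gene's annotated exons (1701 bases for IL12A, 1967 for IL12B, 2247 for IL23A, 1021 for IL27 and 1154 for EBI3). In WT mice EBI3 was highest, at 47.2 ± 4.51 CPM per kb (SD, n = 4), above IL12B in 4 of 4 mice with no overlap. IL12B followed at 8.12 ± 4.57, IL27 at 3.23 ± 0.974, IL23A at 2.96 ± 2.40 and IL12A at 0.907 ± 0.887 CPM per kb. The ranges of these neighbours overlapped, so their order in WT mice is not set beyond the spread between mice.

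In both knockouts the p40 side of the family overtook EBI3 in mean level. IL10RAKO mice had 88.5 ± 23.6 CPM per kb of IL12B, 84.9 ± 47.6 of IL23A and 64.3 ± 13.0 of EBI3, with overlapping ranges. DKO mice had 84.3 ± 29.1 of IL12B, 77.6 ± 44.9 of IL23A and 55.9 ± 8.94 of EBI3, again with overlapping ranges. IL27 came next in both, at 24.9 ± 9.39 and 18.9 ± 2.72 CPM per kb, and was below EBI3 with no overlap. IL12A was last, at 10.9 ± 5.47 and 14.2 ± 1.73 CPM per kb, and its range overlapped that of IL27 in IL10RAKO mice and lay below it in DKO mice. The separation of IL27 from IL12A in DKO mice holds with the exon union alone. With the longest transcript, and with the longest protein-coding one, the means were 18.9 and 18.5 CPM per kb, the ranges overlapped and IL27 was above IL12A in 2 of 4 DKO mice. The order of IL12B and IL23A depends on the length used for IL23A. With the longest transcript, which is 1724 bases for IL23A, the mean of IL23A was above that of IL12B in both knockouts (110.7 against 89.5 CPM per kb in IL10RAKO and 101.1 against 85.3 in DKO mice).

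**Figure D3:**
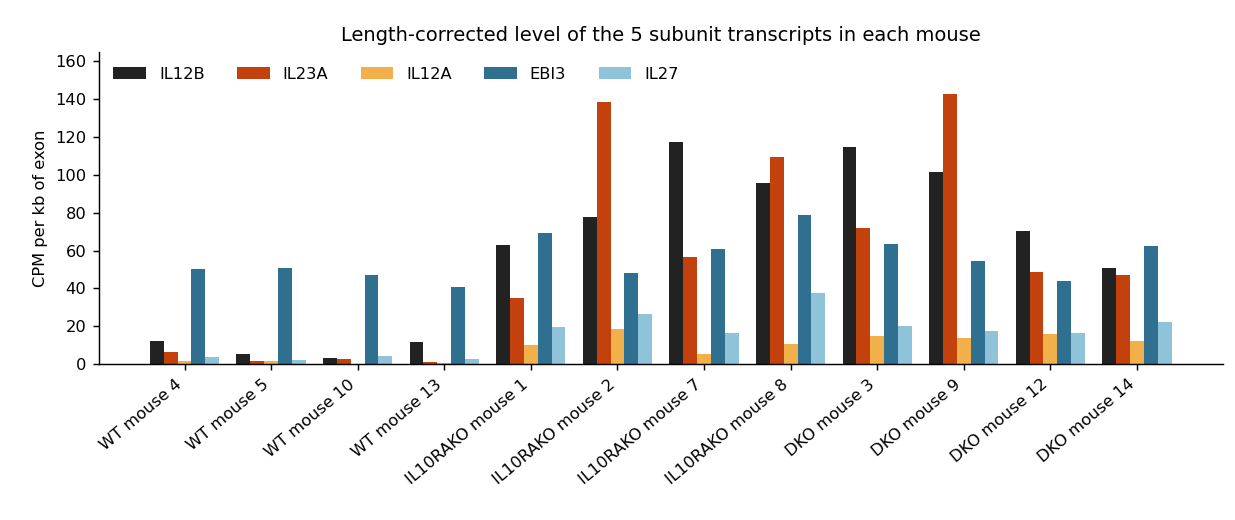
CPM per kb of exon of the 5 subunit transcripts in each of the 12 mice, as bars from 0. EBI3 is the tallest bar in all 4 WT mice, and IL12B, IL23A or both exceed it in most knockout mice, with IL12A the shortest or next to the shortest bar throughout.

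These levels bear on which heterodimers the transcripts would allow, as far as RNA can show. Reads on both subunits of IL-23 and of IL-27 were present in all 12 mice, and reads on both subunits of IL-12 and of IL-35 in 11, the exception being WT mouse 10 without IL12A reads. IL12A was below IL12B and below EBI3, and IL27 was below EBI3, in all 12 mice and with each of the 3 gene lengths tried. The alpha subunit was thus the scarcer transcript for IL-12, IL-27 and IL-35. IL23A exceeded IL12B in none of the WT, 2 of the IL10RAKO and 1 of the DKO mice with the exon union, and in 1, 2 and 4 with the longest protein-coding transcript. The counts do not show whether both subunits were in the same cells, and they measure no protein.

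The sum of IL12A and IL23A, the partners of p40 in IL-12 and IL-23, was 12.9 to 81.8 per 100 IL12B in WT mice (median 64.7), in CPM per kb. IL10RAKO mice ranged from 52.6 to 201.7 (median 98.04) and DKO mice from 75.4 to 154.6 (median 104.3), and the sum exceeded IL12B in 2 of 4 mice of each knockout and in no WT mouse. These values depend on the length used. With the longest transcript the sum exceeded IL12B in 1 WT, 2 IL10RAKO and 3 DKO mice, and with the longest protein-coding transcript in 2, 3 and 4, where the medians were 97.6, 155.5 and 162.4 per 100 IL12B. IL23A made up most of the partner sum, with a median share of 80.4% among WT mice, 89.8% among IL10RAKO mice and 81.4% among DKO mice. The range in WT mice was 45.7% to 100%, the latter in WT mouse 10.

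Within a library the ratio of 2 subunits does not depend on library scaling, and it was compared between genotypes with an exact two-sided permutation test of the mean log2 ratio, after adding 0.5 reads to each gene. The smallest p that 4 mice against 4 allow is 0.0286, and p-values were adjusted over 12 tests, of which none passed. In 4 of the tests p was at this smallest value, for which the adjusted p came to 0.0857. With the other tests as they were, no larger difference could have made these 4 pass. Missing the threshold is therefore not read as a lack of difference in them.

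The IL-27 pair did not overlap between WT mice and either knockout. IL27 was at 7.18, 4.48, 9.47 and 6.60 per 100 EBI3 in WT mice 4, 5, 10 and 13. It was at 28.1, 54.8, 26.7 and 47.6 in IL10RAKO mice and at 31.4, 31.98, 36.8 and 35.8 in DKO mice. All knockout mice were above all WT mice, with a mean difference of 2.48 on the log2 scale in IL10RAKO and 2.34 in DKO mice (exact permutation test, p = 0.0286 and adjusted p = 0.0857 for both). For the IL-35 pair, IL12A per 100 EBI3 was 2.98, 3.64, 0.026 and 0.812 in WT mice, the third from the added 0.5 reads alone, 14.1, 38.05, 8.43 and 13.2 in IL10RAKO mice, and 23.2, 25.7, 36.7 and 19.2 in DKO mice. Its differences were 4.50 and 5.20 on the log2 scale (exact permutation test, p = 0.0286 and adjusted p = 0.0857 for both). They rest in part on WT mouse 10, without which they were 2.92 and 3.62.

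The p40 pairs overlapped between genotypes. IL23A per 100 IL12B was 53.1, 29.5, 81.8 and 10.3 in WT mice, 55.4, 178.1, 48.3 and 114.1 in IL10RAKO mice, and 62.6, 140.8, 69.5 and 92.7 in DKO mice. The knockout mouse was higher in 13 of 16 pairs for IL10RAKO and in 14 of 16 for DKO (exact permutation test, p = 0.143 and 0.0857, adjusted p = 0.286 and 0.206). IL12A per 100 IL12B was 12.4, 35.1, 0.377 and 2.80 in WT mice, 15.7, 23.6, 4.36 and 10.9 in IL10RAKO mice, and 12.8, 13.7, 22.9 and 23.6 in DKO mice. WT mice spanned the knockout range and went beyond it on both sides (exact permutation test, p = 0.486 and 0.286, adjusted p = 0.583 and 0.429). The difference of 1.32 on the log2 scale in IL10RAKO mice fell to 0.11 without WT mouse 10. None of the 4 ratios passed between DKO and IL10RAKO mice, with exact permutation p-values from 0.257 to 0.971.

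**Figure D4:**
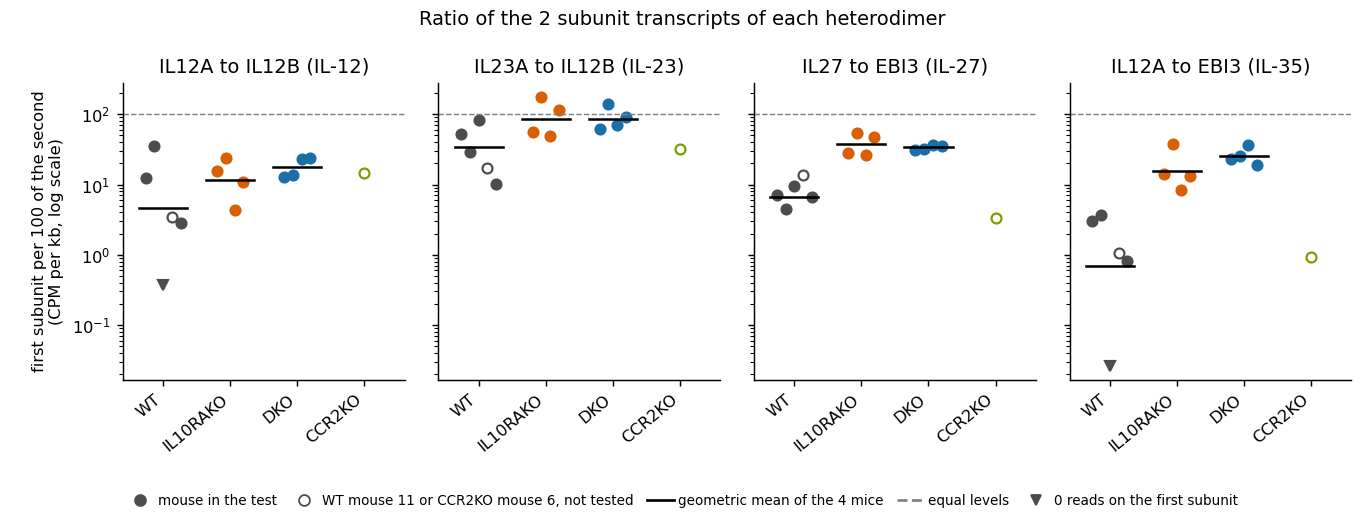
First subunit per 100 of the second, in CPM per kb on a log scale, for the pairs of IL-12, IL-23, IL-27 and IL-35, with 1 point per mouse and a bar at the geometric mean. Knockout mice lie above WT mice without overlap for IL27 to EBI3 and IL12A to EBI3, and the genotypes overlap for both pairs with IL12B.

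With edgeR, the receptor chains showed 2 of 5 genes higher in each knockout against WT and none lower. Both were chains of the IL-12 receptor. Among all genes tested, 8.7% were higher in IL10RAKO and 9.23% in DKO mice, shares to read beside the counts here and in the lists below. IL12RB1, the chain shared by the IL-12 and IL-23 receptors, had 3.23 ± 0.778 CPM in the WT mice, 17.8 ± 2.01 in the IL10RAKO mice and 19.6 ± 2.86 in the DKO mice (SD, n = 4 each), with log2 fold changes of 2.45 ± 0.23 (adjusted p = 6.05e-06) and 2.59 ± 0.23 (adjusted p = 3.41e-06). IL12RB2, the chain specific to IL-12, ranged from 0 to 2.52, from 7.79 to 18.6 and from 13.7 to 29.8 CPM in the same order, with log2 fold changes of 2.88 ± 0.67 (adjusted p = 0.0093) and 3.58 ± 0.69 (adjusted p = 0.00225). IL23R, the chain specific to IL-23, stayed between 0 and 2.86 CPM in all 12 mice, with a log2 fold change of -0.23 (95% confidence interval -2.17 to 1.71) in IL10RAKO mice. The chains of the IL-27 receptor, IL27RA and IL6ST, did not pass with edgeR either, with log2 fold changes of -0.36 and -0.65 in IL10RAKO and -0.34 and -0.92 in DKO mice. DESeq2 called IL6ST in DKO mice, where its adjusted p with edgeR was 0.0892.

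Of 5 kinases and STAT factors that carry the signals of these receptors, 1 was higher in IL10RAKO and 2 in DKO mice with edgeR, and none was lower. Over all genes tested, 15.8% and 18.5% passed in either direction and 8.7% and 9.23% were higher. Counts this small are not read as a result about the list. JAK2, a kinase of the IL-12 and IL-23 receptors, passed in both, with log2 fold changes of 1.28 and 1.38. STAT3, the factor downstream of IL-10 and IL-23, passed in DKO mice at 0.60 (adjusted p = 0.0458) and missed in IL10RAKO mice at 0.45 (adjusted p = 0.141). STAT4, the factor that IL-12 activates, was at 0.88 and 0.75 and did not pass with edgeR, though DESeq2 called it in IL10RAKO mice. JAK1 and TYK2 did not pass with either.

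Of 10 transcription factors known to act at the subunit genes, 6 were higher in each knockout with edgeR and none was lower. Their median log2 fold change against WT was 0.64 for IL10RAKO mice and 0.55 for DKO mice. IRF1, IRF5, IRF8, CEBPB and NFIL3 passed in both comparisons. IRF1, an interferon-induced activator of IL12A and IL27, was higher by 1.75 and 1.74 on the log2 scale, and NFIL3, a repressor of IL12B that IL-10 induces in macrophages, by 1.73 and 1.68. CEBPB was higher by 1.24 and 1.27, IRF8, an activator of IL12B, by 0.81 and 0.87, and IRF5 by 0.65 and 0.61. SPI1 passed in IL10RAKO mice alone at 0.59 (adjusted p = 0.0411, against 0.187 in DKO mice), and RELA in DKO mice alone at 0.50 (adjusted p = 0.0497, against 0.0604 in IL10RAKO mice, where DESeq2 called it too). The NF-kB subunits REL and NFKB1 did not pass, at 0.63 and 0.46 in IL10RAKO and 0.38 and 0.28 in DKO mice. BATF went the other way, at -0.19 in IL10RAKO and -0.59 in DKO mice. It narrowly missed in DKO mice with edgeR (adjusted p = 0.0519), and DESeq2 called it there.

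Of 3 genes reported as other partners of these subunits, IL6 was higher in both knockouts and CLCF1 in IL10RAKO mice. IL6, a cytokine that signals through IL6ST, ranged from 9.02 to 11.4 CPM in the WT mice, from 77.9 to 324.4 in the IL10RAKO mice and from 139.99 to 194.3 in the DKO mice, with log2 fold changes of 4.15 and 4.09 (adjusted p = 7.94e-06 and 8.17e-06, edgeR). CLCF1 rose by 0.93 in IL10RAKO mice (adjusted p = 0.0219, edgeR) and was at 0.71 in DKO mice (adjusted p = 0.0672, edgeR), where DESeq2 called it. CD5L, reported to pair with p40, had a mean of 1.55 CPM among WT mice, 0.401 among IL10RAKO mice and 0.148 among DKO mice and did not pass.

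Of 7 genes for products and regulators of the lymphocytes that respond to IL-12 and IL-23, 4 were higher in IL10RAKO and 3 in DKO mice with edgeR, and none was lower. IFNG, the cytokine that IL-12 induces, ranged from 0.573 to 3.56 CPM in the WT mice, from 6.22 to 23.7 in the IL10RAKO mice and from 3.36 to 43.1 in the DKO mice, which overlapped the WT mice, with log2 fold changes of 3.05 (adjusted p = 0.019) and 3.12 (adjusted p = 0.0148). TBX21, the T helper 1 factor, ranged from 0 to 10.6, from 18.7 to 60.8 and from 14.7 to 61.5 CPM, with log2 fold changes of 3.50 (adjusted p = 0.0319) and 3.36 (adjusted p = 0.0334), and it did not pass in either comparison with DESeq2. IL21 had 0 reads in the 4 WT mice and 1 to 33 and 3 to 53 reads in IL10RAKO and DKO mice, and it passed in both. IL17A passed in IL10RAKO mice, at 0.727 to 3.99 CPM against 0 to 0.382 in WT mice (adjusted p = 0.0287). In DKO mice IL17A missed with edgeR (adjusted p = 0.084) and was called by DESeq2. IL22, IL17F and CSF2 did not pass with edgeR, though DESeq2 called IL17F in IL10RAKO mice. No gene of these 5 lists passed between DKO and IL10RAKO mice with edgeR or DESeq2, and 0 were at an unadjusted p under 0.05.

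**Figure D5:**
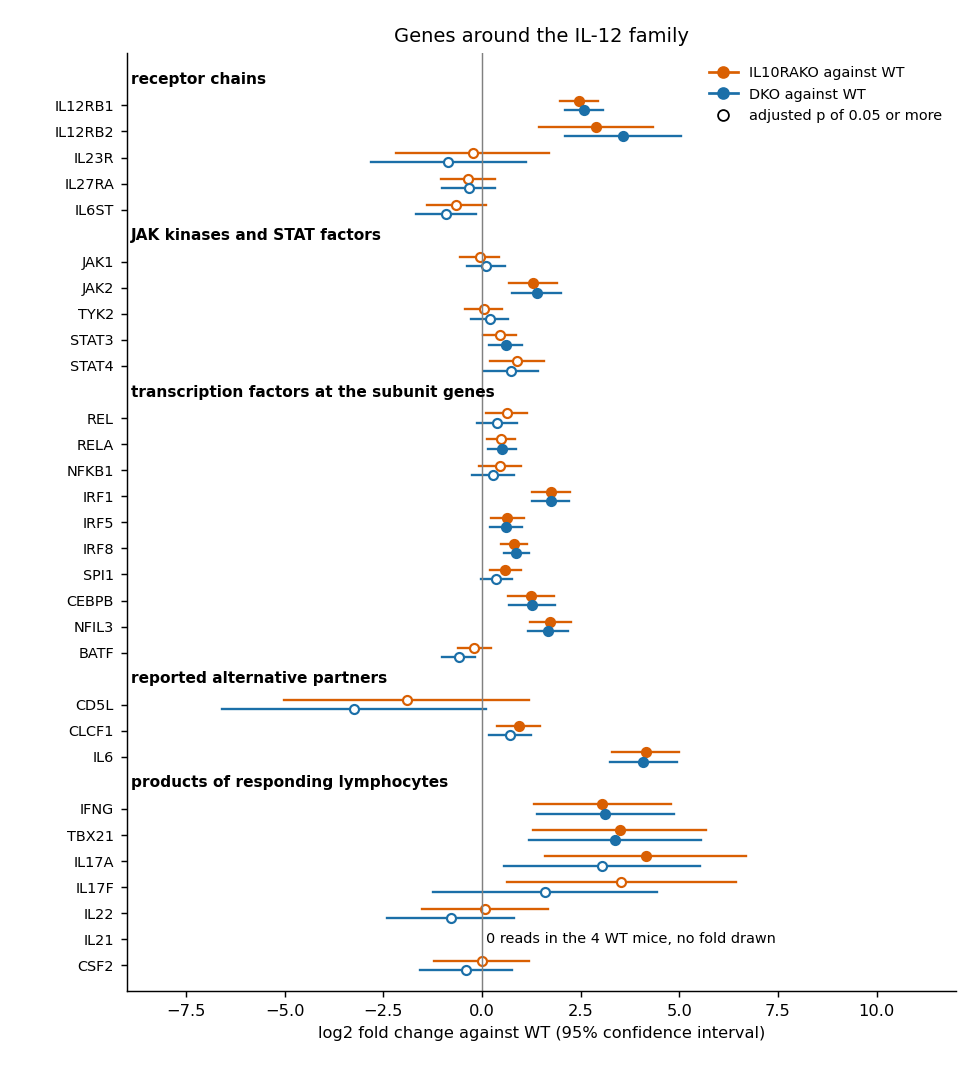
Log2 fold change against WT with 95% confidence interval for receptor chains, JAK kinases and STAT factors, transcription factors, other partners and lymphocyte products, where filled points passed at an adjusted p under 0.05. IL12RB1, IL12RB2, IRF1, NFIL3 and IL6 are among the genes higher in both knockouts, and IL23R, IL27RA and IL6ST did not pass in either with edgeR.

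Markers of other cell types also moved with genotype. Of 8 dendritic cell markers, 4 were higher in IL10RAKO mice (XCR1, CLEC9A, KIT and CCR7) and 3 in DKO mice (CLEC9A, KIT and CCR7), where CD209A was lower. Their summed level ranged from 320.4 to 1440 CPM in the WT mice, from 1618 to 2021 in the IL10RAKO mice and from 1133 to 1913 in the DKO mice, most of it from CCR7, and none of the 8 was at 0 in a genotype. Of 6 monocyte markers, LY6C2, PLAC8 and F10 were higher in both knockouts, with sums of 221.0 to 399.3, 535.9 to 1469 and 786.3 to 934.3 CPM. Of 6 neutrophil markers, 5 were higher in both, with sums of 76.1 to 126.4, 145.3 to 332.0 and 208.1 to 285.6 CPM, and S100A9 was at 0 in the 4 WT mice. All 6 fibroblast markers were lower in both knockouts, with sums of 294.2 to 577.1, 15.0 to 53.7 and 16.1 to 67.0 CPM. Over all genes tested, 15.8% passed in either direction and 8.7% were higher in IL10RAKO mice, and 18.5% and 9.23% in DKO mice. With edgeR and with DESeq2, 0 of 7 T and NK cell markers, 0 of 7 B and plasma cell markers and 0 of 5 epithelial markers tested passed against WT. At an unadjusted p under 0.05 there were 2, 0 and 3 in IL10RAKO mice and 1, 0 and 0 in DKO mice. In IL10RAKO mice these were CD3D and IL7R, which were higher (log2 fold changes 1.53 and 0.81), and KRT8, KRT19 and VIL1, which were lower (-2.14, -2.06 and -2.02). In DKO mice CD3E was lower (-1.70). The T and NK cell markers summed to 41.1 to 54.6 CPM in the WT mice, 58.5 to 91.99 in the IL10RAKO mice and 41.2 to 88.7 in the DKO mice. The B and plasma cell markers summed to 526.6 to 1847, 400.0 to 1093 and 490.2 to 1898 CPM in the same order. The part of these cell types in the subunit levels was not tested.

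The genes most like each member across the 12 mice were found by the Pearson correlation of log2 CPM, a description in which the mice of 3 genotypes and their libraries are shared. They were NR4A2, CCNO and CLEC9A for IL12A (r of 0.979 to 0.972), IL1RN, BCL10 and F3 for IL12B (0.970 to 0.969), OSGIN2, TREM1 and CCL5 for IL23A (0.984 to 0.976), and KLRB1B, ALDOART1 and PSTPIP2 for IL27 (0.992 to 0.979). For EBI3 they were LYN, GDI2 and its antisense neighbour GM16712 (0.928 to 0.916). Among the members themselves, IL23A and IL27 were most alike (r = 0.953), followed by IL12B and IL23A (0.927). EBI3 was the least like the others, with r from 0.489 to 0.647.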

How the data were processed

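RNA of colonic lamina propria macrophages from 14 mice was measured by paired-end sequencing of SmartSeq v4 cDNA. The authors aligned reads to mm10 with STAR 2.5.1b and deposited raw, unnormalized read counts of 24982 genes for each of the 14 libraries. A second table deposited by the authors holds edgeR pseudocounts, a score scaled to a common library size, for 12 of these libraries. It served here only to tell which libraries the study compared. The annotation and strand setting of the counting are not given in the sources used here. Per the labels the submitters' processing notes name bcl2fastq 2.20, STAR 2.5.1b and edgeR 3.34.0. All per-sample count columns were used.

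Groups came from the labels. Counts were filtered by genotype with filterByExpr, which left 13136 genes, scaled with TMM and fitted for 3 genotypes together with edgeR 4.0.16 in R 4.3.3 (glmQLFit and glmQLFTest). Benjamini-Hochberg adjustment ran over all genes tested, with a threshold of 0.05. Subunit ratios used reads per kb of exon and exact permutation tests. Positions and lengths came from GENCODE vM21 (GRCm38), with 96 of 96 gene names matched. Nothing says that mice of a genotype came from separate litters, so p-values measure the spread between these mice. Depth was 12153000 to 21216468 reads per library.

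The members and gene lists were chosen with earlier results of these data known, and some genes of the lists are not reported here. Named genes are the 5 members, the targeted genes, the genes of the lists, neighbours of the members, and the 3 genes most correlated with each member. Alternatives were DESeq2 1.42.0, RLE size factors, library totals, other filters, fits of 2 genotypes, 13 libraries, the bias-adjusted deviance of edgeR 4.0.16, each mouse left out in turn and, for ratios, other lengths and 1 read added. Figures were drawn with Python 3.11.15 and matplotlib 3.10.9.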

Additional observations from a re-analysis of the deposited data

Results flagged for a closer look

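Both libraries outside the comparisons held subunit levels above those of the 4 WT mice compared. WT mouse 11 had 35.1 CPM of IL12B, against 6.34 to 23.9 CPM in the other WT mice, 8.21 CPM of IL27, against 2.29 to 4.51, and 67.7 CPM of EBI3, against 47.3 to 58.4. Its IL12B and IL27 were still below the lowest IL10RAKO and DKO mice. Its IL12A and IL23A, at 1.03 and 6.89 CPM, lay within the WT range. CCR2KO mouse 6 had 76.7 CPM of EBI3, above all WT mice. Its IL12A (1.04 CPM), IL12B (8.29), IL23A (3.06) and IL27 (2.27) were at or near WT levels, with IL27 just below the lowest WT mouse. Each value comes from 1 library and was not tested. No mouse stood far from the others of its genotype in any of the 27 groups of subunit levels and ratios examined, a rule that chance meets in about 5% of groups.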

How the results depend on the processing

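IL12A, IL12B, IL23A and IL27 passed against WT in both knockouts, and EBI3 missed, under each alternative run, with 4 members called in each, except that a filter of at least 10 reads in every library left IL12A untested and 3 members called. Against WT the log2 fold changes ranged from 3.15 to 4.17 and 3.53 to 4.55 for IL12A (IL10RAKO and DKO), 3.14 to 3.72 and 3.07 to 3.65 for IL12B, 4.49 to 5.55 and 4.23 to 5.42 for IL23A, and 2.57 to 3.13 and 2.18 to 2.73 for IL27. The highest adjusted p was 0.0229, for IL12A in IL10RAKO mice. EBI3 ranged from 0.12 to 0.57 (adjusted p from 0.0519 to 0.615) and from -0.011 to 0.35 (0.229 to 0.972), the negative value with library totals without TMM. That setting moved the median of all genes to -0.38 and -0.32 and the share of called genes that were higher from 55.1% to 23.8% in IL10RAKO and from 50.0% to 25.9% in DKO mice. Between DKO and IL10RAKO mice no member passed in any setting. Leaving out 1 mouse gave log2 fold changes from -0.26 to 0.11 for IL12B and -0.60 to 0.21 for IL23A, and 4 to 10 genes called, while DESeq2 called 24. The cause was not tested. With WT mouse 11 added (13 libraries), the ratios IL27 to EBI3 and IL12A to EBI3 passed against WT at an adjusted p of 0.0476 (differences of 2.27 and 2.13, and 4.38 and 5.08), as more mice allow a smaller exact p. Leaving out 1 mouse gave differences between DKO and IL10RAKO mice from -0.26 to 0.37 for IL23A to IL12B and from -0.30 to 0.044 for IL27 to EBI3. With the longest protein-coding transcript, an alternative chosen after seeing the data, the mean log2 ratio of IL23A to IL12B in DKO mice was 0.50. With 3 mice against 4 the smallest exact p is 0.0571, so no ratio test could pass without a mouse. No paired analysis was possible because the labels give no litter or cage and the genotypes share no replicate numbers. The paper states that controls were littermates housed together, a structure that the tests here leave out. Depth limits IL12A in WT mice most, where 0 to 53 reads were counted.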
